A study of Mus musculus with 12 samples.

Results

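The B cell genes described here are 42 genes named for their roles in B cell receptor signalling, in the transcriptional control of B cells, and in follicular and marginal zone B cells. The list was drawn up by role when earlier results of these data were known, and its genes were then found by symbol in the gene annotation of the arrays, with no threshold on their measured values. A gene entered when at least 1 probe set, the group of probes that reports on a transcript, was annotated to its symbol alone, and where a gene had several such probe sets the one with the highest mean over all arrays was used. This gave 39 measured genes of 42 listed, among 22180 genes in all. Lyn, Cd72 and Cd38 had no probe set of their own and were not analysed here.

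Expression was measured in whole spleen RNA on 12 Affymetrix Mouse Gene 2.0 ST arrays, 1 for each of 12 female C57BL/6 mice with a labelled age of 10 weeks. There were 4 groups of 3 mice: naive wildtype (WT) mice, naive ficolin knockout (KO) mice, and WT and ficolin KO mice sacrificed 6 h after an intraperitoneal injection of 10 mg/kg lipopolysaccharide (LPS), a component of the outer membrane of Gram-negative bacteria. Naive mice were untreated. Ficolin KO mice lack both Fcna and Fcnb, the genes of ficolin-A and ficolin-B, which are pattern recognition molecules of the lectin pathway of complement. WT and ficolin KO mice were bred as separate homozygous lines from the offspring of heterozygous crosses. The deleted Fcna checked the labels: its log2 value was 7.92 to 9.38 in the 6 WT mice and 3.98 to 4.85 in the 6 ficolin KO mice. Mice of the same group correlated at 0.987 to 0.992 across genes, and array medians were 4.17 to 4.27 on the log2 scale.

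B cells make up much of the white pulp of the spleen, where follicular B cells recirculate and marginal zone B cells stay at the border to the red pulp and respond early to blood-borne bacteria. A B cell senses antigen through a membrane immunoglobulin that is coupled to the chains encoded by Cd79a and Cd79b. When antigen binds, the kinases Blk, Syk and Btk, the adaptor Blnk and the phospholipase Plcg2 pass the signal on, and coreceptors of the surface raise or lower it. Mouse B cells also carry a receptor for LPS, so that LPS reaches them without the antigen receptor. The factors Ebf1 and Pax5 set up and hold the identity of the B lineage. The comparisons asked how these genes differed between LPS challenged and naive spleens in each genotype, and whether the genotypes differed in either state.

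Promoters of the B cell genes were read from RefSeq (GRCm38.p6) for 30 of the 39 measured genes, as 300 bases that begin 250 bases before the start of a transcript, which gave 38 promoters. Cd79b, Blk, Ms4a1, Cd24a, Ly6d, Cd83, Ikzf3, Cd1d1 and Mzb1 were not matched. Motifs of factors whose genes are among the 39 were searched on both strands: the octamer ATGCAAAT of the Oct-2 protein (gene Pou2f2) with its coactivator (Pou2af1), CCCNNGGGA of Ebf1, and AGAGGAA of PU.1 and Spi-B (Spib). The promoters below are shown as 1 example of each motif, from Cd79a, Cd55 and Vpreb3, and 1 promoter with none of them, that of Pax5. They were picked with the values known. Of the other genes with these motifs, Btk, Cd37 and Fcrla were lower after LPS in both genotypes and the rest passed no call. Capitals mark the motif as it stands on the printed strand, which is the strand of the gene, read 5′ to 3′, and positions are on GRCm38.p6.
Cd79a promoter, chr7:24897247-24897546, plus strand: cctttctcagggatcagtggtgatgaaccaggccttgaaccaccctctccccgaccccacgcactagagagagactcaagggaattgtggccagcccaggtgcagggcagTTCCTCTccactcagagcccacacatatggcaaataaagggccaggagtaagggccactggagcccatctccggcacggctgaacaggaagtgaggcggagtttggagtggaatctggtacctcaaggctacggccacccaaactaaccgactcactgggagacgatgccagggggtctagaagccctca
Cd55 promoter, chr1:130462695-130462994, minus strand: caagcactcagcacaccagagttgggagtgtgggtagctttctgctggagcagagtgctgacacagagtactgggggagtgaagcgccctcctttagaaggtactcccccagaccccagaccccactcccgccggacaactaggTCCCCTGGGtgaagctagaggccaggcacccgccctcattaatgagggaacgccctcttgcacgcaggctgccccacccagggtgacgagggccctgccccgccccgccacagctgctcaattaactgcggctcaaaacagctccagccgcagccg
Vpreb3 promoter, chr10:75948050-75948349, plus strand: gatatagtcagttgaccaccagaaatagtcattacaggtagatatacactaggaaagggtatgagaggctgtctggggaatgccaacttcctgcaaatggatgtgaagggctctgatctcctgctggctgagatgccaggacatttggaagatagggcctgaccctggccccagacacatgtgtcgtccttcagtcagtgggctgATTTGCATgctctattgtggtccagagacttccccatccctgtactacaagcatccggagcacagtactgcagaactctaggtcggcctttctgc
Pax5 promoter, chr4:44710645-44710944, minus strand: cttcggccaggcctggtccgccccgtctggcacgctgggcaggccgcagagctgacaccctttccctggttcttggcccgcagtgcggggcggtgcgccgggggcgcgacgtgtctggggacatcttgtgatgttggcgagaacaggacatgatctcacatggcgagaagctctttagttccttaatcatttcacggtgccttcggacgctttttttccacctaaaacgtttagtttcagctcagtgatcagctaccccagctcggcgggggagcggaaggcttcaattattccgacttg

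The capitals mark AGAGGAA, read on the opposite strand, in the promoter of Cd79a, where the motif begins 140 bases before the start. In Cd55 they mark CCCNNGGGA on the opposite strand, 106 bases before the start, and in Vpreb3 the octamer on the opposite strand, 45 bases before it. The octamer was found in 2 of the 38 promoters (5.26%), those of Blnk and Vpreb3, against 1.74% of all 32851 promoters of the table, and of these Vpreb3 was lower after LPS by the call in both genotypes and Blnk passed none. CCCNNGGGA was found in 3 (7.89%, against 6.56% of all), those of Cd22, Cd55 and Dtx1, of which Cd55 was lower in both genotypes and the others passed no call. In Cd22, CCCNNGGGA matched at overlapping positions on both strands and was counted once. AGAGGAA was found in 8 (21.1%, against 10.4% of all), and of these genes Btk, Cd37, Cd79a and Fcrla were lower after LPS in both genotypes, whereas Bcl6, Dtx1, Ebf1 and S1pr3 did not pass the call in either. These matches describe letters in a window of the sequence and are not evidence of binding.

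In LPS challenged WT mice, 18 of the 39 B cell genes were lower than in naive WT mice and 1 was higher, at a fold-change over 2 and an adjusted p under 0.05 (limma fitted to all 12 arrays, Benjamini-Hochberg over all 22180 genes). Of all genes tested, 4.95% were lower and 4.05% higher by the same call. In ficolin KO mice 19 B cell genes were lower and 2 were higher, against 4.43% and 4.22% of all genes. The same 18 genes were lower in both genotypes, where 3.69% of all genes were, and these included the genes of both B cell receptor chains, Cd79a and Cd79b, of CD20 (Ms4a1), of CD23 (Fcer2a) and of the complement receptors CD21 and CD35 (Cr2). Cd83 was the gene that rose in both. The 39 genes had median log2 fold-changes of -0.88 (WT) and -0.83 (ficolin KO), and that of all genes was 0.01 and -0.01.

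On each array, the mean log2 value of the 39 B cell genes lay between 8.92 and 9.06 in naive WT mice, between 8.98 and 9.06 in naive ficolin KO mice, between 8.01 and 8.10 in LPS challenged WT mice and between 8.04 and 8.20 in LPS challenged ficolin KO mice. Every LPS challenged array lay below every naive array. For 26 single genes, all 6 LPS challenged arrays lay below all 6 naive arrays, for Pik3ap1, Cd83 and Dtx1 all 6 lay above, and for the other 10 genes the arrays overlapped. This separation of 6 against 6 arrays was counted for the B cell genes alone. Its share of all genes was not counted, so it is not read as a result about the B cell genes. Within each genotype alone, 28 of the 39 genes were lower after LPS with no overlap of the arrays, which held for 21.3% of all genes in WT and 20.9% in ficolin KO mice. The spread between mice of 1 group was similar to that of other genes, with a median SD of 0.18 for the B cell genes and 0.17 for all genes. In whole spleen RNA, fewer B cells and less RNA of these genes per B cell cannot be told apart.

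**Figure D1:**
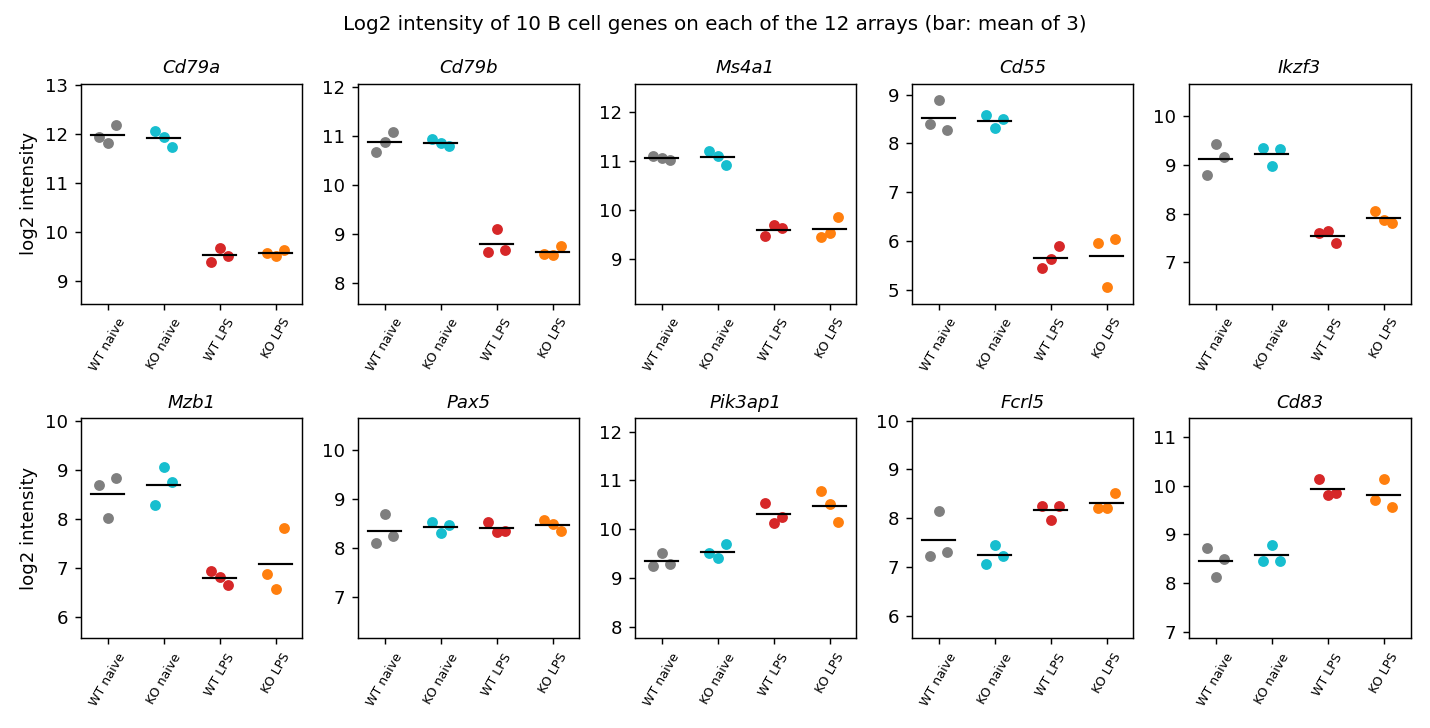
Log2 intensity (y axis) of 10 B cell genes on each of the 12 arrays, by group (x axis). Points are single mice, bars the mean of 3, and every panel spans the same number of log2 units. Cd79a lies between 11.74 and 12.18 on the naive arrays and between 9.38 and 9.67 on the LPS challenged arrays, whereas the groups overlap for Pax5.

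Among the B cell receptor chains and proximal signalling genes, 7 of 10 measured genes were lower in both genotypes and none was higher by the call, with a median log2 fold-change of -1.48 (WT) and -1.31 (ficolin KO). Cd79a had log2 values of 11.93, 11.82 and 12.18 in naive WT mice and 9.38, 9.67 and 9.50 in LPS challenged WT mice. In ficolin KO mice it had 12.06, 11.94 and 11.74 in the naive and 9.56, 9.51 and 9.63 in the LPS challenged state. The naive and LPS challenged arrays were separated by more than 2 log2 units in both genotypes. The fitted log2 fold-changes were -2.46 for WT (SE 0.13, limma adjusted p = 2.94e-09) and -2.35 for ficolin KO mice (SE 0.13, adjusted p = 4.61e-09), which is 5.50 and 5.09 times lower.

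Cd79b, which pairs with Cd79a, had log2 values of 10.68, 10.88 and 11.08 in naive and 8.63, 9.10 and 8.66 in LPS challenged WT mice. In ficolin KO mice the values were 10.93, 10.85 and 10.80 in the naive and 8.59, 8.56 and 8.75 in the LPS challenged state. Here too no LPS challenged array reached a naive one, and the log2 fold-changes were -2.08 (SE 0.14) and -2.23 (SE 0.14). The scaffold Bank1 was lower by log2 fold-changes of -2.0 (WT) and -1.86 (ficolin KO), and the Src family kinase Blk by -1.82 and -1.72. Rasgrp3, an exchange factor that activates Ras in B cells, followed with -1.57 and -1.43, Btk with -1.39 and -1.18, and Plcg2 with -1.07 and -1.09.

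Blnk, the adaptor between Syk and Plcg2, had log2 fold-changes of -0.84 (WT) and -0.68 (ficolin KO), with adjusted p under 0.05 in both but a fold-change under 2. The kinase Syk, which other blood cells also use, had -0.38 (adjusted p = 0.0469 from limma) and -0.35 (adjusted p = 0.0713). Pik3ap1, an adaptor that links the B cell receptor and Toll-like receptors to the lipid kinase PI3K, had a positive fold-change. Its log2 values were 9.25, 9.52 and 9.30 in naive and 10.54, 10.12 and 10.25 in LPS challenged WT mice, and 9.52, 9.41 and 9.70 in naive and 10.79, 10.52 and 10.15 in LPS challenged ficolin KO mice. All LPS challenged arrays lay above all naive arrays, but at log2 fold-changes of 0.95 and 0.94 (SE 0.16, adjusted p = 0.00032 and 0.000345 from limma) Pik3ap1 stayed under the fold criterion.

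Among the surface receptors and coreceptors, 6 of 12 measured genes were lower in both genotypes. Cd55, which encodes decay accelerating factor and protects cells from complement, had the lowest log2 fold-change of all 39 genes. It had log2 values of 8.39, 8.89 and 8.27 in naive and 5.45, 5.63 and 5.91 in LPS challenged WT mice. In ficolin KO mice the values were 8.59, 8.32 and 8.50 in the naive and 5.97, 5.06 and 6.05 in the LPS challenged state. The arrays of the naive and LPS challenged groups lay far apart, with log2 fold-changes of -2.85 (WT) and -2.78 (ficolin KO, SE 0.23 each), or 7.23 and 6.85 times lower. Cd55 is not limited to B cells.

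Cr2, whose receptors bind fragments of complement C3 on antigen, had log2 fold-changes of -2.33 (WT) and -2.03 (ficolin KO, SE 0.18). Siglecg, an inhibitory receptor for sialic acids, had -1.80 and -1.78, and Fcer2a, the low-affinity IgE receptor of follicular B cells, had -1.66 and -1.91. Ms4a1 had log2 values of 11.10, 11.07 and 11.03 in naive and 9.48, 9.70 and 9.63 in LPS challenged WT mice, and 11.22, 11.11 and 10.93 in naive and 9.46, 9.54 and 9.86 in LPS challenged ficolin KO mice. The groups did not overlap, and the log2 fold-changes of Ms4a1 were -1.46 and -1.47 (SE 0.13). The tetraspanin gene Cd37 had -1.33 and -1.49.

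The other surface genes did not pass the call for a lower level. Ly6d, a membrane-anchored protein of B lineage cells, had log2 fold-changes of -0.60 and -0.62, and Fcrl1, an Fc receptor-like protein, had -0.40 and -0.40, all with adjusted p under 0.05. Cd22, like Siglecg an inhibitory receptor for sialic acids, had -0.45 in WT (limma adjusted p = 0.0228) and -0.23 in ficolin KO mice (adjusted p = 0.273). Cd24a, a glycoprotein of developing B cells and of many other cells, had 0.04 and -0.36 with adjusted p over 0.05 in both. A second, dimmer probe set of Cd24a had 0.54 and 0.03, so the probe sets of this gene did not give the same values.

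Cd83, a surface protein of activated B cells and dendritic cells, rose. It had log2 values of 8.73, 8.12 and 8.49 in naive and 10.13, 9.81 and 9.84 in LPS challenged WT mice, and 8.46, 8.79 and 8.46 in naive and 9.70, 10.13 and 9.57 in LPS challenged ficolin KO mice. Every LPS challenged array lay above every naive array, with log2 fold-changes of 1.48 and 1.23 (SE 0.18). Fcrl5, an Fc receptor-like protein of marginal zone and B-1 B cells in mice, had 7.22, 8.15 and 7.31 in naive and 8.26, 7.96 and 8.26 in LPS challenged WT mice, and 7.07, 7.45 and 7.22 in naive and 8.22, 8.21 and 8.52 in LPS challenged ficolin KO mice. Of the naive WT arrays, 1 lay among the LPS challenged ones, and the groups were separate in ficolin KO mice. The log2 fold-change of Fcrl5 was 0.60 for WT (SE 0.20, limma adjusted p = 0.0371) and 1.07 for ficolin KO mice (SE 0.20, adjusted p = 0.000833), so that the call was passed by the latter. The difference between these responses was 0.47 (95% CI -0.15 to 1.09), and without 1 array of the ficolin KO mice (naive mouse 1 or LPS challenged mouse 3) Fcrl5 fell short of the fold criterion, with 0.98 and 0.97.

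**Figure D2:**
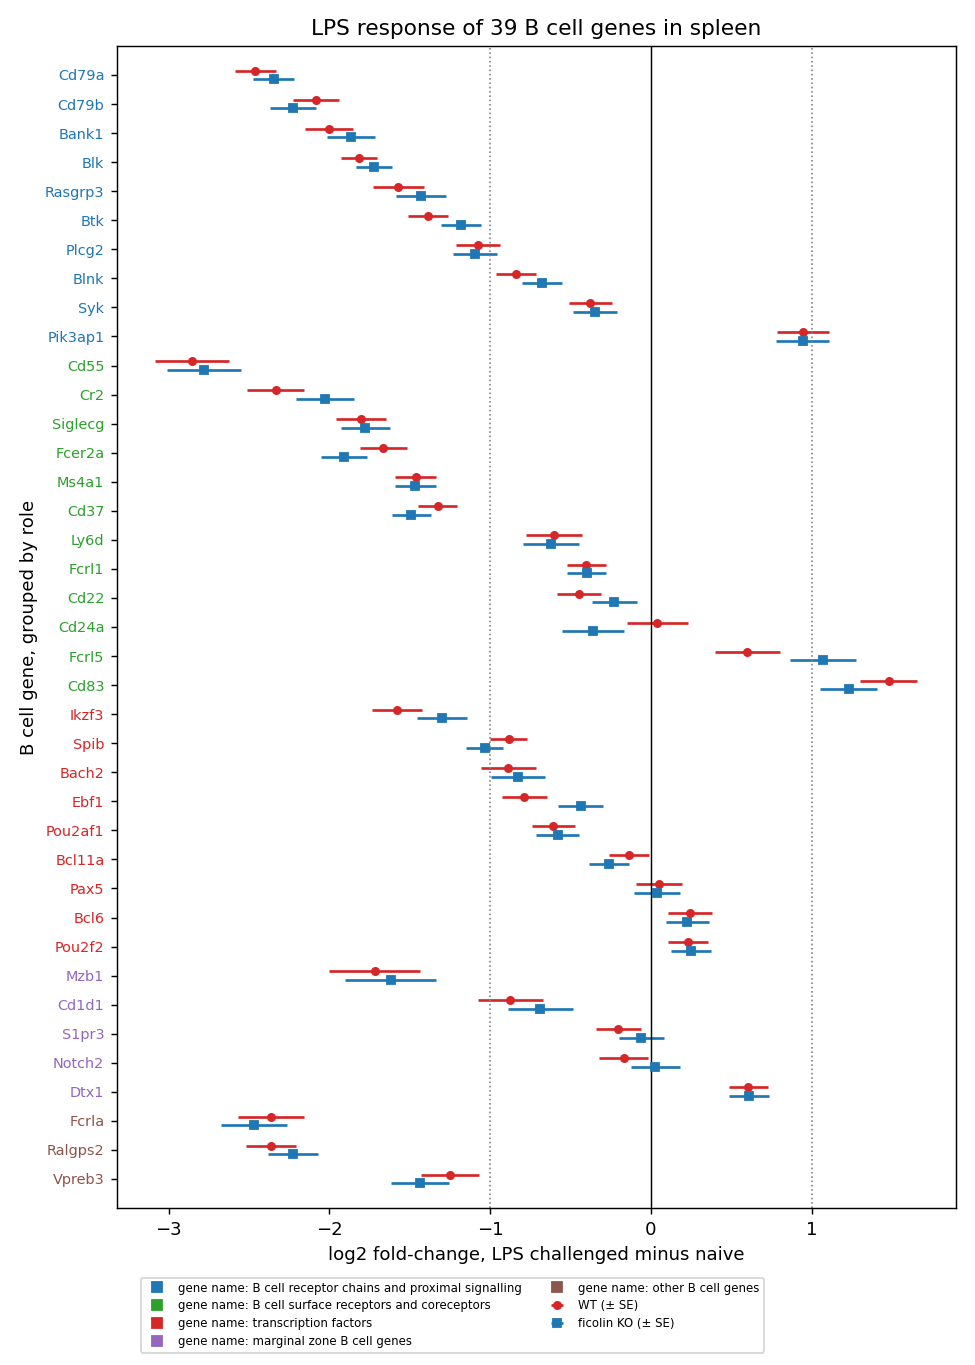
Log2 fold-change (x axis, LPS challenged minus naive, ± SE) of the 39 B cell genes (y axis, grouped by role, names coloured by role group) in WT mice (circles) and ficolin KO mice (squares). Dotted lines mark a fold-change of 2. In both genotypes Cd55 lies furthest to the left, at -2.85 and -2.78, and Cd83 furthest to the right, at 1.48 and 1.23.

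The transcription factors had log2 fold-changes nearer to 0. Of 9 measured genes, 1 was lower by the call in WT and 2 in ficolin KO mice, with median log2 fold-changes of -0.61 and -0.44. Ikzf3, the gene of Aiolos, a zinc finger factor of lymphocytes, had log2 values of 8.80, 9.42 and 9.16 in naive and 7.60, 7.64 and 7.40 in LPS challenged WT mice, and 9.34, 8.97 and 9.32 in naive and 8.05, 7.87 and 7.81 in LPS challenged ficolin KO mice. Naive and LPS challenged arrays were separate, with log2 fold-changes of -1.58 and -1.30 (SE 0.16). Spib encodes a factor of B cells and plasmacytoid dendritic cells that shares the motif AGAGGAA with PU.1. Spib had log2 fold-changes of -0.88 (WT) and -1.03 (ficolin KO, SE 0.11) and passed the fold criterion in ficolin KO mice. There it did not pass with array medians subtracted (-0.99), without naive mouse 1 (-0.96) or without LPS challenged mouse 1 (-0.99).

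For Pax5 no difference between the naive and LPS challenged states was detectable with 3 mice per group. It had log2 values of 8.11, 8.69 and 8.25 in naive and 8.52, 8.33 and 8.35 in LPS challenged WT mice, and 8.52, 8.31 and 8.47 in naive and 8.58, 8.49 and 8.35 in LPS challenged ficolin KO mice. All 4 groups overlapped, with log2 fold-changes of 0.05 (95% CI -0.26 to 0.36) and 0.04 (95% CI -0.27 to 0.35). Pou2f2 had 7.29, 7.63 and 7.60 in naive and 7.86, 7.58 and 7.77 in LPS challenged WT mice, and 7.62, 7.49 and 7.61 in naive and 7.74, 7.77 and 7.96 in LPS challenged ficolin KO mice. Its groups overlapped in WT and were narrowly separate in ficolin KO mice, and its log2 fold-changes of 0.23 and 0.25 (SE 0.13) had adjusted p of 0.199 and 0.171 in limma. Bcl6, a repressor needed in germinal centres, had 0.24 and 0.23, and Bcl11a, a zinc finger factor of early B lineage cells, had -0.14 and -0.26, also with adjusted p over 0.05. Ebf1 had -0.79 and -0.44, Pou2af1 had -0.61 and -0.58, and Bach2, a repressor that delays plasma cell differentiation, had -0.89 and -0.83. These values of Ebf1, Pou2af1 and Bach2 had adjusted p under 0.05 in both genotypes, with a fold-change under 2.

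Of the 5 marginal zone B cell genes, 1 was lower by the call in each genotype. Mzb1, an endoplasmic reticulum protein that helps assemble antibodies in marginal zone B cells and plasma cells, had log2 values of 8.69, 8.03 and 8.83 in naive and 6.93, 6.82 and 6.65 in LPS challenged WT mice, and 8.29, 9.06 and 8.75 in naive and 6.87, 6.56 and 7.82 in LPS challenged ficolin KO mice. The third LPS challenged ficolin KO mouse lay well above the other two but below all naive mice, and the SE of 0.28 was the largest of the 39 genes. The log2 fold-changes of Mzb1 were -1.72 and -1.62, and with ordinary least squares its call in ficolin KO mice was lost (adjusted p = 0.0873). The same mouse also had the highest mean of 10 plasma cell genes in its group, 7.63 against 7.28 and 7.15, and the part of this in the value of Mzb1 was not tested.

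Dtx1, a target of Notch signalling in marginal zone B cells, was higher on the LPS challenged arrays without passing the fold criterion. It had log2 values of 8.60, 8.74 and 8.97 in naive and 9.42, 9.41 and 9.30 in LPS challenged WT mice, and 8.66, 8.70 and 8.67 in naive and 9.44, 9.29 and 9.13 in LPS challenged ficolin KO mice. No naive array reached an LPS challenged one, and the log2 fold-changes were 0.61 and 0.61 (SE 0.12, adjusted p = 0.00118 and 0.00117 from limma). A dimmer second probe set of Dtx1 had 0.93 and 0.98. Notch2, the receptor on which marginal zone B cells depend, had -0.17 and 0.03, and S1pr3, a receptor for sphingosine 1-phosphate, had -0.20 and -0.06, none of them with adjusted p under 0.05. Cd1d1, which presents lipids to NKT cells, had -0.87 and -0.69, but its values lay below the array median on 6 of the 12 arrays.

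The other B cell genes, 3 in number, were all lower in both genotypes. Fcrla, an Fc receptor-like protein that stays inside B cells, had log2 values of 9.31, 9.21 and 9.60 in naive and 6.84, 7.29 and 6.90 in LPS challenged WT mice, and 9.48, 9.63 and 9.18 in naive and 6.85, 6.57 and 7.46 in LPS challenged ficolin KO mice. The naive and LPS challenged groups were far apart, at log2 fold-changes of -2.36 and -2.47 (SE 0.20). Vpreb3, related to the surrogate light chain of B cell precursors, had 6.92, 6.72 and 7.0 in naive and 5.31, 5.95 and 5.63 in LPS challenged WT mice, and 7.35, 6.89 and 6.83 in naive and 5.54, 5.37 and 5.85 in LPS challenged ficolin KO mice. Its groups did not overlap either, with log2 fold-changes of -1.25 and -1.44 (SE 0.18). Ralgps2, an exchange factor for the small GTPase Ral, had -2.36 and -2.23 (SE 0.16).

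Between ficolin KO and WT mice no B cell gene passed the call of a fold-change over 1.5 with p under 0.05 (limma), in the naive or in the LPS challenged state. Of all genes, 0.185% passed it in naive and 0.46% in LPS challenged mice. In naive mice the log2 differences, ficolin KO minus WT, ran from -0.31 (Fcrl5) to 0.20 (Rasgrp3), and none of the 39 had an unadjusted p under 0.05, against 2.85% of all genes. The 95% confidence intervals of 37 genes lay inside a fold-change of 1.5 in either direction, and those of Fcrl5, with a lower bound of -0.75, and Mzb1, with an upper bound of 0.79, did not. For Cd79a the difference was -0.06 (95% CI -0.34 to 0.21), and for Ms4a1 it was 0.02 (95% CI -0.25 to 0.29).

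In LPS challenged mice the differences ran from -0.35 (Cd24a) to 0.36 (Ikzf3). Of all 22180 genes, 11182 were higher and 10885 lower in ficolin KO mice, and of the 39 B cell genes 26 were higher and 13 lower. The 39 genes were read from the same arrays, so their directions are not independent. Ikzf3 (0.36, 95% CI 0.03 to 0.70) and Rasgrp3 (0.34, 95% CI 0.00132 to 0.67) were the 2 genes with an unadjusted p under 0.05, where 5.18% of all genes had one, and the adjusted p of both was 0.93 in limma. The 3 values of Ikzf3 in LPS challenged ficolin KO mice, 8.05, 7.87 and 7.81, lay above the 3 in LPS challenged WT mice, 7.60, 7.64 and 7.40, and for Bcl11a the 3 values in ficolin KO mice (8.49, 8.77 and 8.76) lay just below those in WT mice (8.78, 8.78 and 8.92). Such a separation after LPS was found for 5.95% of all genes with ficolin KO mice higher and for 4.94% with ficolin KO mice lower. The confidence intervals of 33 genes lay inside a fold-change of 1.5, and those of Rasgrp3, Fcrl5, Cd24a, Ikzf3, Cd1d1 and Mzb1 reached beyond it. For Cd79a the difference was 0.05 (95% CI -0.23 to 0.33) and for Ms4a1 0.02 (95% CI -0.26 to 0.29). All 39 intervals lay inside a fold-change of 2 in both states.

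**Figure D3:**
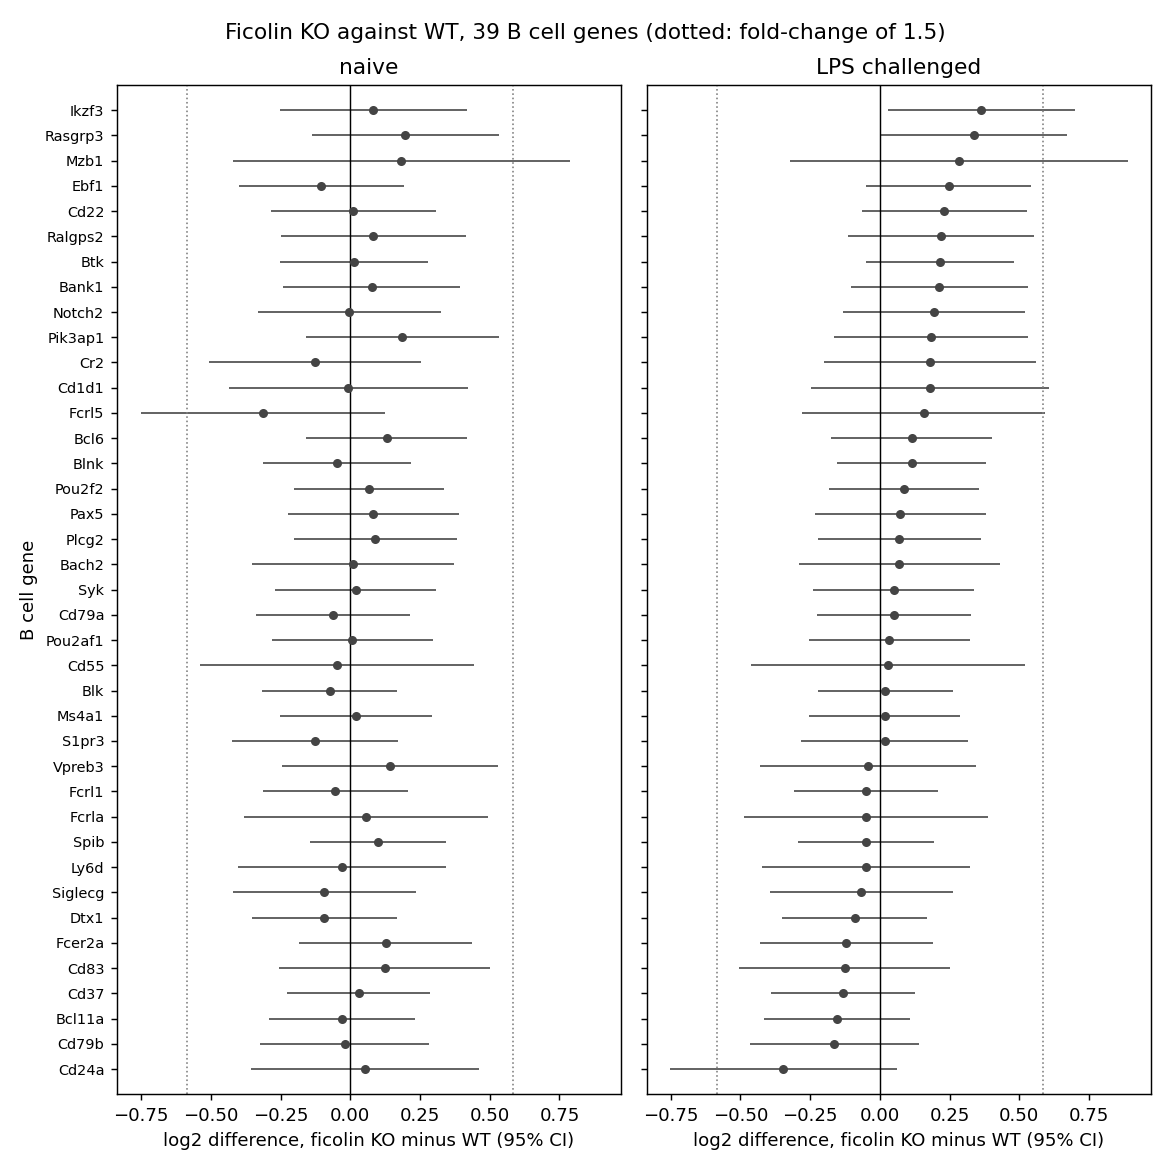
Log2 difference between ficolin KO and WT mice (x axis, with 95% confidence interval from limma) for the 39 B cell genes (y axis) in naive mice (left) and LPS challenged mice (right). Dotted lines mark a fold-change of 1.5. In naive mice every interval crosses 0, and in LPS challenged mice those of Ikzf3 and Rasgrp3 do not.

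The LPS response itself was compared between genotypes by its difference, the response of ficolin KO minus that of WT mice. No B cell gene had an adjusted p under 0.05 in limma (lowest adjusted p = 0.998), nor an unadjusted p under 0.05, against 0.00902% and 3.53% of all genes. The differences ran from -0.40 (Cd24a, 95% CI -0.98 to 0.18) to 0.47 (Fcrl5), with a median of 0.03. Ebf1 had the lowest unadjusted p (0.095 in limma), with a difference of 0.35 (95% CI -0.07 to 0.77). These intervals were wider than those between single groups: 22 of 39 lay inside a fold-change of 1.5 and 38 inside a fold-change of 2, the exception being Fcrl5. The log2 fold-changes of WT and ficolin KO mice, which share no arrays, had the same sign in 37 of the 39 genes (94.9%, against 76.7% of all genes), Cd24a and Notch2 being the others.

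Other genes of the B cell receptor pathway, which are not among the 42, were also measured. Of 22 such genes, 7 were lower by the call in WT and 3 in ficolin KO mice, and none was higher. Those lower by the call in both genotypes were Dok3, an inhibitory adaptor, with log2 fold-changes of -2.12 and -1.94, the kinase Tec with -1.70 and -1.66, and the inositol phosphatase Inpp5d with -1.43 and -1.02. The other 4 called in WT mice lay at or just under the fold criterion in ficolin KO mice, where Stim1 had -1.0, Itpr2 and Ptprc -0.93 each and Prkcb -0.90, all with adjusted p under 0.05, and no gene of the list was called when the LPS responses of the genotypes were compared (limma, lowest adjusted p = 0.998, with 0 genes at an unadjusted p under 0.05). Vav1, an exchange factor used in most blood cells, had 0.12 and 0.05. Of 17 other B cell transcription factors and survival genes, 3 were lower and 2 higher in WT mice, and 4 lower and 3 higher in ficolin KO mice. H2-Ob, a chain of the class II-like protein H2-O of B cells, had -2.36 and -2.26, and Mef2c had -1.79 and -1.54. Cd40, the receptor for T cell help, rose with 2.20 and 2.10.

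Genes known to be induced when B cells are activated were mostly higher after LPS. Of 15 measured, 9 passed the call for a higher level in WT and 8 in ficolin KO mice, with a median log2 fold-change of 1.47 and 1.08. Egr3, an immediate early gene of antigen receptor signalling, had -0.49 and -0.48, with adjusted p under 0.05 and a fold-change under 2 in both. Cd69, an early activation antigen, had 3.0 and 2.80, Myc, which drives growth, had 2.57 and 2.63, and Cd80, a ligand of T cell costimulation, had 2.09 and 2.13. Other cells of the spleen express these genes as well. None of the 15 was called when the LPS responses of the genotypes were compared, and the median of these differences was -0.01. Egr1, with a difference of -0.57, was the 1 gene of the list with an unadjusted p under 0.05 for it (adjusted p = 0.998 in limma). Of 10 plasma cell genes, 2 were lower and 1 higher in WT mice, and 1 was lower and 1 higher in ficolin KO mice. Of 7 germinal centre genes, Gcsam was lower with -1.66 and -1.63 and Fas higher with 2.0 and 1.49 in both genotypes, and Efnb1 (-1.02) was lower in ficolin KO mice.

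Markers of other spleen cells were also lower after LPS, and their part in the values of the B cell genes was not tested. Of 10 T cell genes, 6 were lower in WT and 8 in ficolin KO mice, with a median log2 fold-change of -1.04 and -1.18, and their mean per array was 7.63 to 7.80 in naive and 6.39 to 6.63 in LPS challenged mice. Of 10 red pulp macrophage genes, 6 and 7 were lower, and their mean was 9.16 to 9.51 in naive and 7.79 to 8.03 in LPS challenged mice. Of 9 dendritic cell genes 4 and 4 were lower, of 8 NK cell genes 4 and 4, of 8 monocyte genes 4 and 4 with 2 and 1 higher, and of 8 splenic stroma genes 2 and 3. Of 10 neutrophil genes none was lower in WT and 1 in ficolin KO mice, and of 5 erythroid genes 1 was higher in WT mice.

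Genes of the exocrine pancreas, which lies next to the spleen, were also measured on these arrays. The mean of 9 such genes was 8.50 to 10.35 in naive WT mice, 9.29 to 10.89 in naive ficolin KO mice and 9.04 to 11.07 in LPS challenged WT mice, but 4.02, 6.75 and 8.54 in the 3 LPS challenged ficolin KO mice. By the respective calls, all 9 were lower in ficolin KO than in WT mice after LPS, and in LPS challenged than in naive ficolin KO mice. The adjusted p from limma was under 0.05 for 0 of the 9 in the first comparison and for 9 in the second. In the same 3 mice the mean of the 39 B cell genes was 8.15, 8.04 and 8.20, and the part of the pancreas genes in the values of the B cell genes was not tested. Leaving out each array in turn gave 18 to 20 lower B cell genes in ficolin KO mice and none between the genotypes in either state. It does not test the part of the pancreas genes, since each of the 3 LPS challenged ficolin KO means lay below those of all LPS challenged WT mice.

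**Figure D4:**
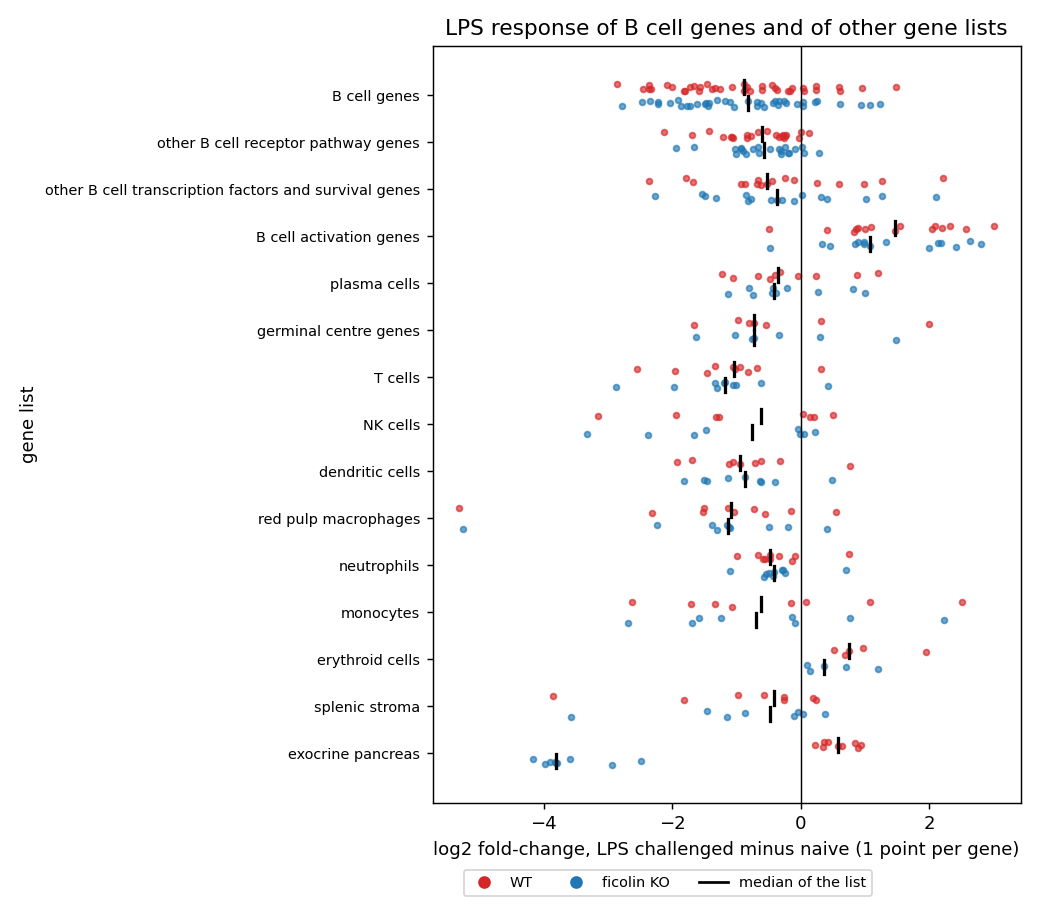
Log2 fold-change (x axis, LPS challenged minus naive, 1 point per gene) of the 39 B cell genes and of the genes of other lists (y axis) in WT and ficolin KO mice, with the median of each list as a black bar. The median of the B cell genes lies at -0.88 and -0.83 and that of the B cell activation genes at 1.47 and 1.08. The exocrine pancreas genes lie below 0 in ficolin KO mice and above 0 in WT mice.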

How the data were processed

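Spleen gene expression of 12 mice in 4 groups of 3 was measured on Affymetrix Mouse Gene 2.0 ST arrays. Quantile normalization and summaries by robust multi-array average (RMA) were done by the authors with Qlucore Omics Explorer, which gave the deposited log2 intensities of 41345 probe sets. The genome build of these values is not given in the sources used here, the scanned arrays were not used, and the values carry no detection calls. The number of arrays limits the precision. Quantile normalization gives every array nearly the same distribution, so each level is relative to the other genes of its array.

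Of the probe sets, 23521 were annotated to 1 symbol and entered, and 1820 with more than 1 and 16004 without a symbol did not. A gene with more than 1 probe set was represented by the one with the highest mean, which gave 22180 genes with no filter on dim genes. Groups came from the labels. Limma 3.58.1 in R 4.3.3 was fitted to the 12 arrays together (residual degrees of freedom 8, prior 6.67), and p-values were adjusted by Benjamini-Hochberg over all genes. Calls used the criteria of the study, between treatments an adjusted p under 0.05 and a fold-change over 2, and between genotypes an unadjusted p under 0.05 and a fold-change over 1.5. An adjusted p under 0.05 was set here for the difference between responses. Log2 fold-changes had a median SE of 0.14. In an exact permutation test 3 mice against 3 cannot give a p under 0.1. The fit was tested on simulated data.

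The members and lists were chosen with earlier results of these data known, so no test was adjusted over the list alone. Values on every array are given for Cd79a, Cd79b, Ms4a1 and Pax5, for the genes with the lowest and the highest mean LPS response in each role group, and for the gene with the largest difference between responses. Other members are given by fold-change. Promoters came from RefSeq (GRCm38.p6). Protein sequences were not used here, so the signalling motif of the receptor chains was not analysed here. The alternatives tried were fits of 2 groups at a time, ordinary least squares, trended and robust variances, the dimmest genes left out, probe sets averaged, array medians subtracted, a replicate block and leaving out each array.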

Additional observations from a re-analysis of the deposited data

How the results depend on the processing

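The counts of B cell genes called lower after LPS stayed at 18 to 19 in WT and 18 to 20 in ficolin KO mice when each array was left out in turn, the count called higher was 1 to 2 in WT and 1 to 3 in ficolin KO mice, and no gene was called between genotypes or between responses with any array left out. The median log2 fold-change in ficolin KO mice was -0.93 with the dimmest genes left out and ranged from -1.02 to -0.68 with single arrays left out, against -0.83. Among single genes, fold-changes near 0 changed sign when arrays were left out: Cd24a (-0.083 to 0.23) and Pax5 (-0.07 to 0.22) in WT mice, and Pax5 (-0.022 to 0.10), Notch2 (-0.11 to 0.20) and S1pr3 (-0.17 to 0.038) in ficolin KO mice. Besides Spib, Fcrl5 and Mzb1, Plcg2 fell short of the fold criterion in ficolin KO mice without naive mouse 3 (-0.997). Calls were gained with 1 array left out by Bach2 in ficolin KO mice (-1.02), Cd1d1 in WT mice (-1.02) and Pik3ap1 in both genotypes (1.02 to 1.11). Of the single-gene values under the other alternatives, 562 kept their direction and side of the threshold and 2 did not. No pairing of mice by the replicate numbers of the labels was seen, which does not show that there was none. The deviations of same-numbered mice had correlations of -0.22 to 0.25 (18 pairs), and those of other pairs -0.23 to 0.21 (36 pairs). With the number as a replicate block the counts were unchanged, 18 and 1 in WT and 19 and 2 in ficolin KO mice. Subtracting array medians moved the median of all genes by 0.04. Cd1d1 was dim on 6 arrays.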
